A study of Mus musculus with 17 samples.

Results

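The genes described here build and control MHC class II, the surface molecules that show peptides from engulfed proteins to CD4+ T cells. They are H2-Aa, H2-Ab1, H2-Eb1, H2-DMa, H2-DMb2, H2-Oa, H2-Ob, Cd74 and Ciita. The set was chosen by name, as the named parts of this pathway that had a probe set assigned to 1 gene symbol only. These are 9 of the 18193 genes so represented on the array, and all 9 were among the 12696 genes that passed a filter on low values, which asked for a level above the array's own median on at least 4 arrays. Where a gene had several such probe sets, the one with the highest mean over all 17 arrays stood for it.

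Class II molecules are pairs of an alpha and a beta chain that are joined in the endoplasmic reticulum to the invariant chain, encoded by Cd74, which fills the peptide groove and steers the complex to endosomes. There proteases cut the invariant chain down, H2-DM exchanges its last fragment for a peptide, and H2-DO holds H2-DM back. In blood the pathway is carried constitutively by B cells and by dendritic cells and some monocytes, and its genes are switched on together by the coactivator Ciita, which docks on proteins bound to the promoters. B cells are among the most radiosensitive cells of the blood.

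The animals were female C57BL/6JJcl mice, an inbred wild-type strain, aged 8 weeks. They received X-rays to the whole body at 0 (control), 0.5, 1.0 or 3.0 Gy, and blood was drawn 24 h later. There were 5 control mice and 4 at each dose, and the labels call them biological replicates, with 1 array for each. This strain carries the b haplotype of the MHC, in which the alpha chain gene of the second classical class II molecule, H2-Ea, has a promoter deletion, so that H2-Eb1 lacks its partner at the cell surface. Values are log2 levels from the RMA method as the authors deposited them, so a difference of 1 is a doubling. A call is an adjusted p under 0.05 in limma, a linear model fitted to all 12696 genes with Benjamini-Hochberg adjustment, and an SE is limma's.

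The arrays were alike in scale, with medians of 3.47 to 3.57. Other features of the whole blood went with the dose groups. Markers of B cells were called lower at 3.0 Gy in 18 of 19 genes (median change -2.87) and those of T cells in 12 of 14. Over all tested genes 29.2% were called lower and 20.0% higher at that dose. Of the red cell markers 5 of 8 were called lower and 2 higher at that dose (median change -0.84). Of the neutrophil markers 6 of 7 were called higher there (median change 0.98). Platelet markers were called higher in 15 of 15 at every dose, with median changes of 1.06, 1.59 and 1.89. At 0.5 and 1.0 Gy 5.24% and 8.80% of all tested genes were called higher. Control probe sets for 18S ribosomal RNA read 10.52 ± 0.49 (SD, n = 5) in controls, 12.69 ± 0.77 and 13.28 ± 0.28 at 0.5 and 1.0 Gy (SD, n = 4 each) and 10.68 ± 0.14 at 3.0 Gy (SD, n = 4), so they separated both lower doses from the other groups. 1 array stood apart, since 3.0 Gy replicate 2 had a mean B cell marker level of 6.15, against 4.66 to 4.87 on the other 3 arrays of its group. Its monocyte marker mean was also above theirs (6.27, against 5.60 to 5.96). Its platelet marker mean was below theirs (10.59, against 10.97 to 11.42), and its T cell marker mean (5.87) was inside their range of 5.77 to 6.00. The part of these features in the results below was not tested, and the values with and without that array are given. In whole blood, fewer cells of a type and less RNA per cell cannot be told apart.

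The promoters of these genes are known for a shared set of short elements just upstream of the start site, to which RFX, CREB and NF-Y proteins bind and on which Ciita assembles. RefSeq windows of 300 bases, 250 of them before the annotated start, were at hand for 6 of the 9 genes (build GRCm38.p6). They are shown as a description, a choice made after values were seen, and their part in the changes was not tested. The Y box, the NF-Y element spelled TGATTGG, was found on the gene's own strand in 5 of the 6, against 4.01% of all 32851 windows on the gene's strand and 7.82% on either strand. Neither of the 2 windows of H2-DMa held it. It began 45 bases before the start in H2-Oa, 50 in H2-Aa, 59 in H2-Ob, 61 in H2-Eb1 and 92 in H2-DMb2. An X box core spelled AGNAAC, which by itself occurred in 48.1% of windows on either strand, lay 29 to 32 bases ahead of that Y box in H2-Eb1, H2-Oa and H2-Ob. The same letters at that spacing were in 16 windows of the whole table (0.0487%), among them those of H2-DMb1 and H2-Eb2, and the spacing was chosen after the sequences were seen. The stretches below run 5′ to 3′ on the gene's strand from 150 to 21 bases before the start, with the Y box and, where paired with it, the X core in capitals; a match of letters is a description and not a bound site. They are chr17:34287844-34287973 (minus strand) for H2-Aa and, on the plus strand, chr17:34305717-34305846 for H2-Eb1, chr17:34145099-34145228 for H2-DMb2, chr17:34092229-34092358 for H2-Oa and chr17:34238755-34238884 for H2-Ob.
H2-Aa: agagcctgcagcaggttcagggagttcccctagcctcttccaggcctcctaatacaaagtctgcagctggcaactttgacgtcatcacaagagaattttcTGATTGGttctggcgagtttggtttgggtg
H2-Eb1: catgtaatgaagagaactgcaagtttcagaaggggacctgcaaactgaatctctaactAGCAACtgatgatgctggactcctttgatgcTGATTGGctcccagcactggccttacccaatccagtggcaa
H2-DMb2: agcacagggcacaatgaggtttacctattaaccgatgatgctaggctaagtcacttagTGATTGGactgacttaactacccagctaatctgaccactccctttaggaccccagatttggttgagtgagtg
H2-Oa: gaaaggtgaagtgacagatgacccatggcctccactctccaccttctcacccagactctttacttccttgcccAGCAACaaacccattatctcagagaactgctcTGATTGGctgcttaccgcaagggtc
H2-Ob: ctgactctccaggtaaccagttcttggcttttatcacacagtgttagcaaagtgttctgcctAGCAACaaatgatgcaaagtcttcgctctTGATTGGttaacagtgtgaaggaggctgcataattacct

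All 9 genes were lower than in controls at 3.0 Gy, 8 of them by more than 4-fold, while at 0.5 and 1.0 Gy the same genes lay less far below control and few passed the test. At 3.0 Gy 9 of 9 were called lower, where 29.2% of all tested genes were; 8 of 9 were called and at least 4-fold lower, as were 1.54% of all tested genes. The median change was -3.05 on the log2 scale, beside 0.04 over all genes. At 0.5 Gy 2 of 9 were called lower (5.0% of all genes) and at 1.0 Gy also 2 of 9 (8.49%), H2-DMa and H2-Oa each time. Their median changes there were -0.79 and -0.85, beside -0.02 and -0.04 over all genes, and at an unadjusted p under 0.05 there were 7 and 6 of 9 (12.8% and 15.8% of all genes, lower). No member was called higher at any dose.

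**Figure D1:**
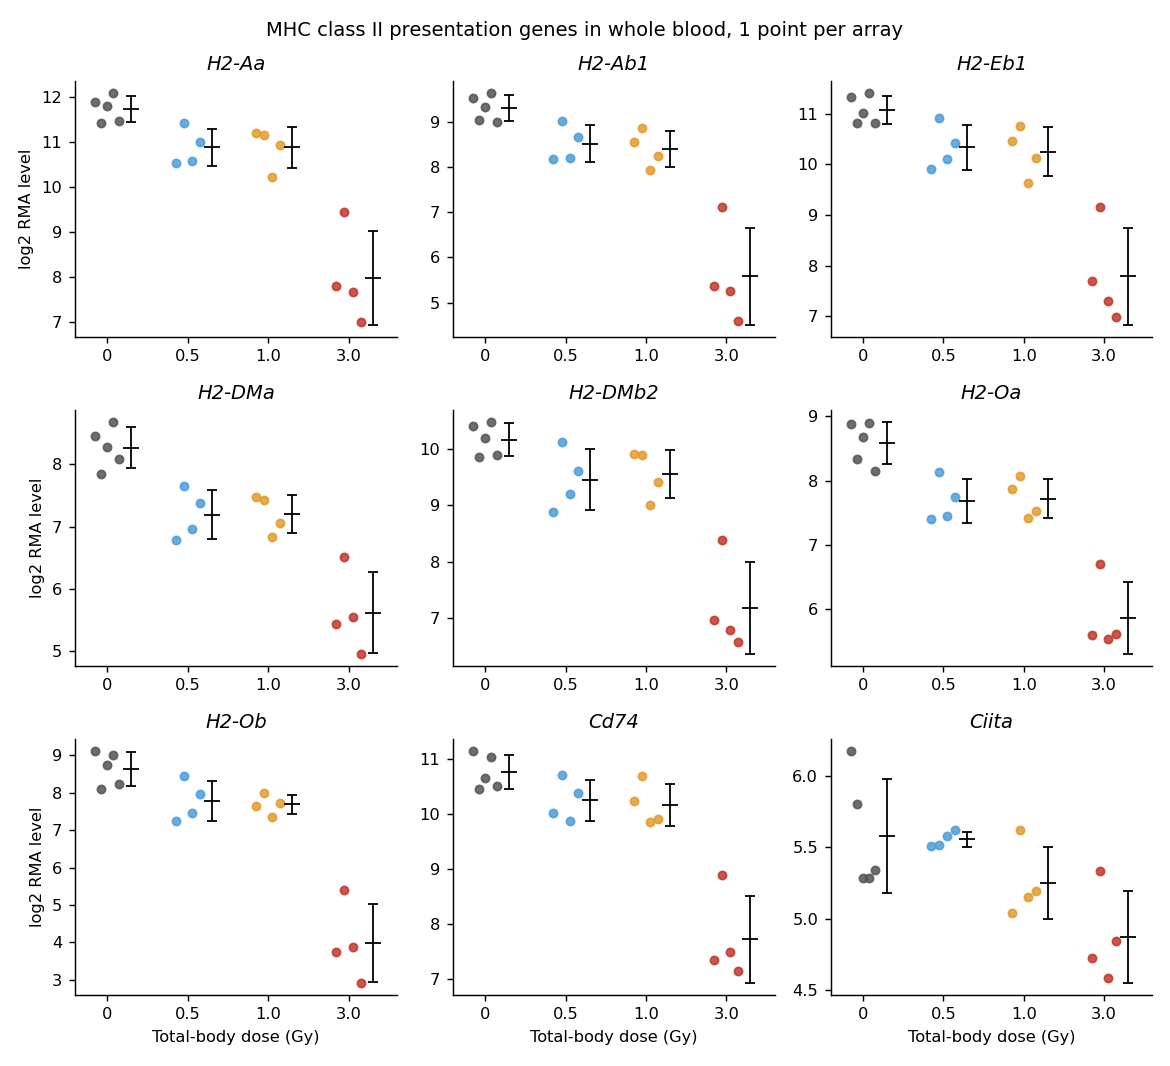
Deposited log2 RMA level (vertical axes, which differ between panels and do not start at 0) of each class II presentation gene on every array, by total-body dose (horizontal axes); each point is 1 array, and the black mark and bar are the mean and SD (n = 5 for control, n = 4 for each dose). In 8 panels all 3.0 Gy points lie below all others, Ciita being the exception, and 3.0 Gy replicate 2 is the highest of its group in 9 of 9.

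Of the classical chains, H2-Aa, the alpha chain of I-A, read 11.88, 11.41, 11.80, 12.09 and 11.45 on the 5 control arrays. It read 10.54, 11.41, 10.57 and 11.00 at 0.5 Gy, 11.20, 11.16, 10.21 and 10.94 at 1.0 Gy, and 7.80, 9.45, 7.68 and 7.0 at 3.0 Gy. All 3.0 Gy arrays lay below every other array, all 1.0 Gy arrays lay below the controls, and at 0.5 Gy replicate 2 reached the lowest control. The change at 3.0 Gy was -3.74 (SE 0.34, limma adjusted p = 9.56e-08), a level 13.4-fold lower. At 0.5 and 1.0 Gy H2-Aa stood at -0.85 (SE 0.34, limma adjusted p = 0.141) and -0.85 (SE 0.34, limma adjusted p = 0.103), and neither was called.

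H2-Ab1, the I-A beta chain that pairs with it, read 9.52, 9.04, 9.32, 9.65 and 8.99 in controls and 5.36, 7.12, 5.25 and 4.60 at 3.0 Gy. The 0.5 Gy arrays read 8.17, 9.03, 8.19 and 8.67, and those at 1.0 Gy 8.56, 8.87, 7.92 and 8.25. Again only 0.5 Gy replicate 2 lay within the control range, and every 3.0 Gy array lay below all other arrays. The change of -3.72 (SE 0.35, limma adjusted p = 1.11e-07) at 3.0 Gy was 13.2-fold, beside -0.79 and -0.90 at the lower doses, which were not called (adjusted p = 0.184 and 0.0861).

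H2-Eb1, the beta chain of I-E, read 11.33, 10.81, 11.01, 11.42 and 10.82 in controls, 9.91, 10.91, 10.10 and 10.43 at 0.5 Gy, 10.46, 10.77, 9.64 and 10.13 at 1.0 Gy, and 7.69, 9.16, 7.30 and 6.99 at 3.0 Gy. The pattern over arrays was that of the I-A chains. It fell by 3.29 at 3.0 Gy (SE 0.33, limma adjusted p = 2.44e-07, 9.79-fold), and its differences of -0.74 and -0.83 at the lower doses were not called (adjusted p = 0.191 and 0.0996). The other probe sets of these chains moved in the same direction. The 3 further ones of H2-Aa differed from control by -3.42 to -4.21 at 3.0 Gy, and the 2 further ones of H2-Ab1 by -2.98 and -2.70, descriptions without a test.

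Cd74, the invariant chain, read 11.16, 10.46, 10.65, 11.05 and 10.52 in controls, 10.03, 10.72, 9.88 and 10.39 at 0.5 Gy, and 10.24, 10.69, 9.86 and 9.91 at 1.0 Gy. At 3.0 Gy it read 7.33, 8.90, 7.49 and 7.15. Both lower doses had 1 array inside the control range, and the 3.0 Gy arrays were apart from all others. The fall at 3.0 Gy was 8.29-fold (log2 change -3.05, SE 0.29, limma adjusted p = 1.11e-07). At 0.5 and 1.0 Gy the differences were -0.52 and -0.59, with 95% intervals of -1.11 to 0.08 and -1.19 to 0.01, and neither was called (limma adjusted p = 0.319 and 0.181).

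H2-DMa, the alpha chain of the peptide exchanger H2-DM, was already called at the lower doses. It read 8.46, 7.84, 8.29, 8.69 and 8.09 in controls, 6.79, 7.66, 6.96 and 7.38 at 0.5 Gy, and 7.48, 7.43, 6.84 and 7.06 at 1.0 Gy. No array of either lower dose reached the lowest control. Its change was -1.08 at 0.5 Gy (SE 0.25, limma adjusted p = 0.00933) and -1.07 at 1.0 Gy (SE 0.25, limma adjusted p = 0.00526), which is 2.11-fold and 2.10-fold lower. With the 18S level as a covariate, which went with the same groups, the 0.5 Gy change was -1.90 (limma adjusted p = 0.0400) and the 1.0 Gy change -2.12, which was not called (limma adjusted p = 0.0557). At 3.0 Gy the arrays read 5.45, 6.51, 5.56 and 4.96, a change of -2.65 (SE 0.25, limma adjusted p = 1.36e-07, 6.29-fold). With the mean of both H2-DMa probe sets, the second of them dim, the changes were -0.69, -0.67 and -1.64 at the 3 doses, each called (limma adjusted p = 0.0188, 0.0138 and 1.15e-06). By that mean 7 of 9 genes in place of 8 were at least 4-fold lower at 3.0 Gy.

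H2-DMb2, a beta chain of the same exchanger, read 10.41, 9.85, 10.19, 10.48 and 9.88 in controls and 6.97, 8.38, 6.79 and 6.57 at 3.0 Gy. At 0.5 Gy it read 8.89, 10.13, 9.19 and 9.61 and at 1.0 Gy 9.90, 9.89, 9.0 and 9.42. The 3.0 Gy arrays stood apart, whereas 1 array at 0.5 Gy and 2 at 1.0 Gy lay within the control range. The change at 3.0 Gy was -2.99 (SE 0.31, limma adjusted p = 3.36e-07, 7.92-fold), and those of -0.71 and -0.61 at 0.5 and 1.0 Gy were not called (adjusted p = 0.177 and 0.204). Probe sets shared by H2-DMb2 and its near-identical neighbour H2-DMb1 were not used, and signal of the copies on the probe set used cannot be separated here. The second probe set of H2-DMa was above its array's median on only 2 of 17 arrays.

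The modulator H2-DO is found mainly in B cells. Its beta chain gave the largest change of the 9 genes at 3.0 Gy, and its alpha chain was the other gene called at the lower doses. H2-Oa, the alpha chain, read 8.88, 8.34, 8.67, 8.90 and 8.16 in controls, 7.40, 8.14, 7.45 and 7.75 at 0.5 Gy, and 7.86, 8.07, 7.43 and 7.53 at 1.0 Gy. Every array of the lower doses lay below every control, though by 0.5 Gy replicate 2 only narrowly. The changes were -0.90 (SE 0.23, limma adjusted p = 0.0155) and -0.87 (SE 0.23, limma adjusted p = 0.0124). They were not called with the 18S level as a covariate (-1.37, adjusted p = 0.135, and -1.46, adjusted p = 0.201), nor was the 0.5 Gy change without 0.5 Gy replicate 1 (adjusted p = 0.0680) or replicate 3 (adjusted p = 0.0649). At 3.0 Gy the arrays read 5.60, 6.71, 5.54 and 5.61, a change of -2.72 (SE 0.23, limma adjusted p = 4.11e-08, 6.60-fold).

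H2-Ob, the beta chain of H2-DO, read 9.12, 8.10, 8.74, 9.0 and 8.24 in controls and 3.74, 5.40, 3.87 and 2.91 at 3.0 Gy. In between, the 0.5 Gy arrays read 7.24, 8.46, 7.46 and 7.97 and the 1.0 Gy arrays 7.65, 8.00, 7.36 and 7.74. At 1.0 Gy all 4 arrays were below the controls, at 0.5 Gy 3 of 4. The change of -4.66 at 3.0 Gy (SE 0.36, limma adjusted p = 1.99e-08) left 3.95% of the control level, 25.3-fold lower, and ranked 51 by p among all tested genes. At 3.0 Gy only 3 of 4 arrays read above the array median, so the signal was close to the range of dim probe sets. The changes of -0.86 and -0.95 at the lower doses were not called (limma adjusted p = 0.157 and 0.0783).

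Ciita, the master coactivator of the family, had the smallest change of the 9 genes at every dose. It read 6.17, 5.81, 5.29, 5.29 and 5.34 in controls, 5.51, 5.51, 5.58 and 5.62 at 0.5 Gy, 5.04, 5.62, 5.15 and 5.19 at 1.0 Gy, and 4.73, 5.33, 4.59 and 4.85 at 3.0 Gy. The groups overlapped at every dose, replicate 2 at 3.0 Gy lying above the lowest 2 controls, and control replicates 1 and 2 were well above the other 3. The change of -0.70 at 3.0 Gy was called (SE 0.18, limma adjusted p = 0.00347, 1.63-fold), those of -0.02 at 0.5 Gy and -0.33 at 1.0 Gy were not (adjusted p = 0.969 and 0.251). A second Ciita probe set differed from control by -0.38, -0.54 and -1.21 at the 3 doses, and the last one was above the array median on 0 of 17 arrays. The Ciita probe sets thus differ in size of change. The second one read 5.30 in controls, against 5.58 for the one used, and had the larger change at each dose. The cause was not tested.

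**Figure D2:**
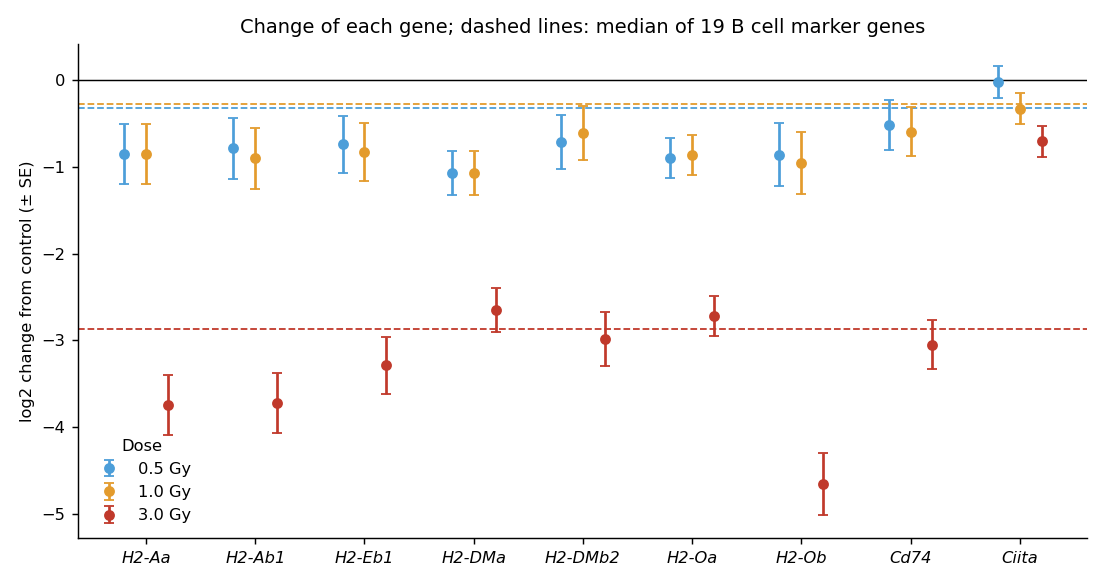
Change from control on the log2 scale (vertical axis; points with limma's SE as bars) of each gene at 0.5, 1.0 and 3.0 Gy; the dashed lines mark the median change of 19 B cell marker genes at the same doses. At 3.0 Gy the changes run from -4.66 in H2-Ob to -0.70 in Ciita, and at the lower doses no gene is beyond -1.08.

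The doses can also be set against each other. From 1.0 to 3.0 Gy 8 of 9 genes were called lower (22.7% of all genes), with changes from -1.58 in H2-DMa to -3.71 in H2-Ob; Ciita, at -0.38, was not (limma adjusted p = 0.122). From 0.5 to 3.0 Gy 9 of 9 were called lower (20.9% of all genes). With the 18S level as a covariate, which separates both lower doses from 3.0 Gy, all of these calls were lost. The 1.0 to 3.0 Gy change was then -0.59 in H2-DMa (limma adjusted p = 0.734) and -2.25 in H2-Ob (limma adjusted p = 0.333), and from 0.5 Gy they were -0.81 and -2.67 (limma adjusted p = 0.422 and 0.0676). Between 0.5 and 1.0 Gy 0 of 9 were called by limma, and 0 had an unadjusted p under 0.05, in a comparison that called 0.0158% of all genes. The widest 95% interval of that difference was -0.89 to 0.70, in H2-Ob, and a difference of the size that H2-Ob showed between 0.5 Gy and control (-0.86) lies inside it. A model with a slope on dose called 9 of 9 lower (27.5% of all genes), from -1.55 per Gy in H2-Ob to -0.24 per Gy in Ciita. With the 3.0 Gy arrays left out, 6 of 9 slopes were called lower (8.44% of all genes). The mean levels of 0.5 and 1.0 Gy were close, for example 7.20 ± 0.39 and 7.20 ± 0.31 in H2-DMa (SD, n = 4 each).

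Counted by arrays alone, every 3.0 Gy array was below every control array in 8 of 9 genes (22.9% of all genes), and below every 0.5 and 1.0 Gy array as well in 8 of 9 (15.7%). At 1.0 Gy the arrays lay below all controls in 6 of 9 (6.38%) and at 0.5 Gy in 2 of 9 (4.54%). The exceptions at 1.0 Gy were H2-DMb2, Cd74 and Ciita. Leaving out 3.0 Gy replicate 2 made the changes at 3.0 Gy larger in 9 of 9 genes: -5.14 in H2-Ob, -4.23 in H2-Aa, -4.23 in H2-Ab1, -3.75 in H2-Eb1, -3.44 in Cd74, -3.39 in H2-DMb2, -3.00 in H2-Oa, -2.95 in H2-DMa and -0.86 in Ciita. The shared spread then shrank, and 7 of 9 genes were called lower at 0.5 Gy (5.58% of all genes) and 7 of 9 at 1.0 Gy (9.04%) in place of 2 and 2.

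The genes ranked the arrays in much the same order within a group. The 0.5 Gy replicate 2 was highest of its group in 8 of 9 genes and replicate 1 lowest in 8 of 9, and at 1.0 Gy replicate 3 was lowest in 8 of 9. Deviations from the group means correlated with r from 0.893 to 0.984 (median 0.949) over the 28 pairs of the 8 genes other than Ciita, across 17 arrays. They did so with r from 0.784 to 0.966 without 3.0 Gy replicate 2. Ciita, by the probe set used, correlated with the others at 0.285 to 0.554, and at -0.06 to 0.32 without that array. Its second probe set correlated with the one used at r = 0.759 over the levels of the 17 arrays. The same 8 genes' deviations followed the mean of the B cell markers with r from 0.857 to 0.959, the monocyte markers with 0.507 to 0.720, the T cell markers with 0.305 to 0.491 the neutrophil markers with 0.309 to 0.545 and the dendritic cell markers with 0.230 to 0.349. With the platelet markers they ran the other way, r being -0.786 to -0.652. Without 3.0 Gy replicate 2 these ran from 0.663 to 0.907 for B cell, 0.353 to 0.706 for monocyte, 0.479 to 0.682 for T cell, 0.475 to 0.783 for neutrophil and 0.301 to 0.537 for dendritic cell markers, and from -0.604 to -0.390 for platelet markers. With all 3.0 Gy arrays left out (13 arrays), r was 0.804 to 0.942 for B cell and 0.706 to 0.870 for neutrophil markers, ranges that overlap. For T cell, monocyte and dendritic cell markers it was 0.508 to 0.745, 0.423 to 0.723 and 0.279 to 0.558. For platelet markers it was -0.636 to -0.308. Genes on an array share its RNA and scaling, so these values are descriptions.

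**Figure D3:**
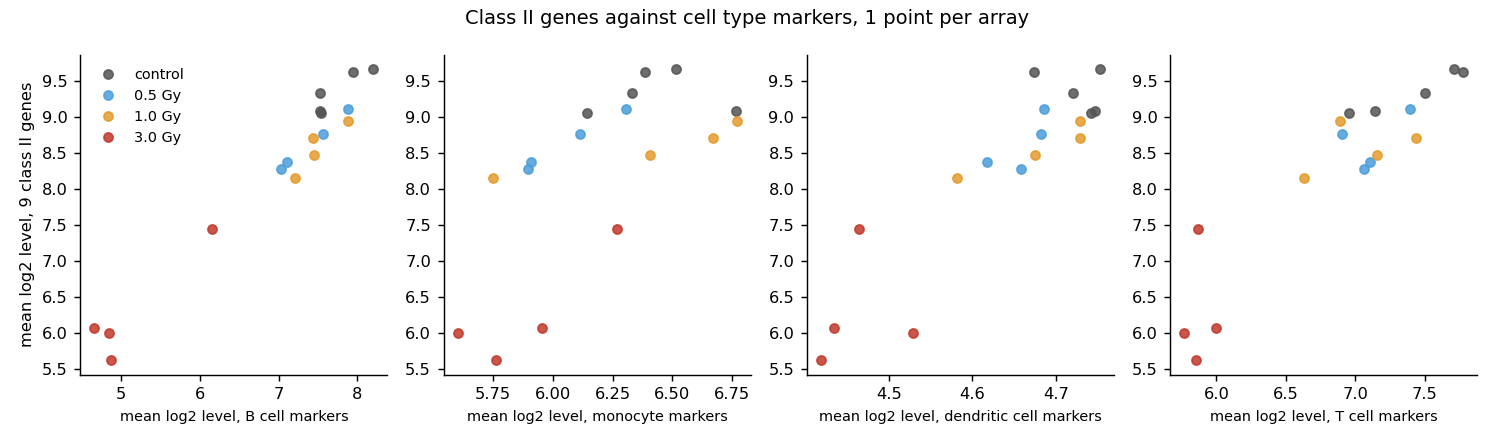
Mean log2 level of the 9 class II presentation genes (vertical axis) against the mean log2 level of B cell, monocyte, dendritic cell and T cell marker genes (horizontal axes, which differ in range), 1 point per array, coloured by dose. The 3.0 Gy array with the highest class II mean, 7.44, also has the highest B cell and monocyte marker means of its group, 6.15 and 6.27. Its T cell marker mean of 5.87 lies among the others of its group.

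Among the cell types that carry class II, the B cell markers moved most. Fcmr, an IgM receptor, fell by 3.64 at 3.0 Gy (SE 0.30), and Cd79a, a signalling chain of the B cell receptor, fell by 2.56 (SE 0.23). Cd22, an inhibitory receptor, changed by -3.11 (SE 0.30), Cd72, which also restrains B cell signalling, by -2.90 (SE 0.23), and Fcer2a, the low-affinity IgE receptor CD23, by -2.87 (SE 0.21). The limma adjusted p was at most 1.28e-07 in these 5. Pax5, the B cell master regulator, named here after its values were seen, was at -0.14 and not called. At 0.5 and 1.0 Gy only Cd79a of the 19 was called lower (-0.79 and -0.87). Per array, the B cell marker mean was 7.53 to 8.21 in controls, 7.03 to 7.89 at 0.5 Gy, 7.21 to 7.89 at 1.0 Gy and 4.66 to 6.15 at 3.0 Gy.

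Of the dendritic cell markers 2 of the 8 tested were called lower at 3.0 Gy, where 29.2% of all genes were. They were Kmo (-1.61, SE 0.16) and Ccr9 (-0.64, SE 0.16), and 0 were called at the lower doses. The mean of the 8 was 4.67 to 4.75 in controls and 4.42 to 4.53 at 3.0 Gy. Of the defining genes, Zbtb46 and Itgax read -0.02 and 0.20 from control and were not called, and Xcr1 and Clec10a did not pass the filter on low values. Monocyte markers were called lower in 3, 1 and 7 of 10 at 0.5, 1.0 and 3.0 Gy. The shares of all genes called lower at these doses were 5.0%, 8.49% and 29.2%. The highest changes in the monocyte list were 1.06, 1.46 and 0.38, and 0 of its genes were called higher at any dose. Ccr2, the receptor that brings inflammatory monocytes out of the marrow, was at -1.52 (SE 0.19) at 3.0 Gy. Treml4 of non-classical monocytes was called at all 3 doses (-1.12, -0.65 and -0.54). Monocyte means were 6.14 to 6.77 in controls and 5.60 to 6.27 at 3.0 Gy, groups that overlap.

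The class II genes were also set against the mean of the 19 B cell markers on the same array. The B cell marker mean differed from control by -0.35, -0.25 and -2.62 at 0.5, 1.0 and 3.0 Gy. A two-sided exact permutation test of each gene's level less that mean, in 27 comparisons of 9 genes at 3 doses, called 7, 7 and 5 genes lower at the 3 doses, with p-values adjusted over the 27. The excess was -0.72 and -0.82 in H2-DMa at 0.5 and 1.0 Gy (exact p = 0.00794 for each, the smallest that 5 against 4 arrays can give) and -0.55 and -0.61 in H2-Oa (exact p = 0.00794 for each). At 3.0 Gy it was -2.04 in H2-Ob, -1.12 in H2-Aa, -1.10 in H2-Ab1, -0.67 in H2-Eb1 and -0.43 in Cd74 (exact p = 0.00794 for each). Single B cell markers ranged widely around that mean at 3.0 Gy, from -3.77 in Bank1 to -0.14 in Pax5. Of the 9 class II genes H2-Ob alone lay below that range. Bank1 (-3.77), Pou2af1 (-3.63) and Cd79b (-3.61), scaffold, coactivator and receptor genes of B cells, were about as low as H2-Aa (-3.74) and H2-Ab1 (-3.72). The lowest marker was at -0.80 at 0.5 Gy, and only H2-Aa, H2-DMa, H2-Oa and H2-Ob were below it. For 1.0 Gy it was at -0.87, and only H2-Ab1, H2-DMa and H2-Ob were below it. At 3.0 Gy the excess was -0.03 in H2-DMa (exact p = 0.889) and -0.10 in H2-Oa (exact p = 0.452), and neither was called. The test measures the spread between arrays and not the spread among the B cell markers. Ciita, by the probe set used, lay the other way. Its level less the B cell mean was 1.91 higher at 3.0 Gy than in controls (exact permutation p = 0.00794). Against the median of the markers in place of their mean, 4, 5 and 5 genes were called lower. Each of these comparisons uses the same 5 controls and the same marker genes.

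Chains that form 1 molecule can be compared in the same way, a choice made after the values were seen and covering 9 comparisons of 3 pairs. H2-Aa and H2-Ab1 moved by amounts that differed by -0.06, 0.05 and -0.02 at the 3 doses, and 0 of these 3 were called by the exact permutation test (exact p = 0.103 to 0.619). With the mean of all probe sets of each gene the difference at 3.0 Gy was -0.65 and was called. H2-Oa and H2-Ob parted by 1.94 at 3.0 Gy (exact p = 0.00794, adjusted over 9 comparisons p = 0.0238), H2-Ob being the lower. The change of H2-DMa less that of H2-DMb2 was -0.37 at 0.5 Gy and -0.46 at 1.0 Gy (exact p = 0.00794 and adjusted p = 0.0238 for each), and 0.33 at 3.0 Gy, which was not called (exact test, adjusted p = 0.0714). With the mean of all probe sets, which for H2-DMa includes the dim one, these were 0.07 and 0.07, not called, and 1.64, called. Probe sets differ in how steeply they respond, and a difference between chains is a difference between probe sets.

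Of 30 other genes of the pathway, 3 were called lower and 1 higher at 0.5 Gy, where 5.24% of all genes were called higher. At 1.0 Gy 3 were called lower and 4 higher (8.80% of all genes), and at 3.0 Gy 15 lower and 4 higher (20.0% of all genes). Their median changes were -0.11, -0.04 and -0.40. Of the transcription factors 6 of 12 were called lower and 0 higher at 3.0 Gy (29.2% and 20.0% of all genes). Irf8 and Irf4, lymphoid and myeloid regulators that act on B cell and dendritic cell genes, changed by -2.40 (SE 0.27) and -1.40 (SE 0.17). The subunits of the promoter complexes moved less: Rfx5 by -0.95 (SE 0.16), Nfya by -0.80 (SE 0.17) and Nfyb by -0.51 (SE 0.16), with Creb1 at -1.30 (SE 0.29). Rfxank, another RFX subunit, was called lower at 0.5 Gy (-0.46) and 1.0 Gy (-0.53) and not at 3.0 Gy (-0.19, limma adjusted p = 0.209).

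The endosomal enzymes divided by gene. At 3.0 Gy 5 of 8 were called lower and 2 higher (29.2% and 20.0% of all genes). Ctss, the cathepsin that makes the last cuts in the invariant chain of B cells and dendritic cells, changed by -1.54 (SE 0.25), and Ifi30, which reduces disulfide bonds of antigens, by -1.65 (SE 0.26). Ctsh (-1.77, SE 0.27), Ctsb (-1.23, SE 0.21) and Lgmn (-1.03, SE 0.16) were likewise called lower. Ctsd, an aspartic protease of lysosomes, was called higher at each dose (0.53, 0.81 and 1.11), and Sppl2a, the membrane protease that clears the stub of the invariant chain, at 1.0 and 3.0 Gy (0.55 and 0.40).

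Of the 3 genes that set how long class II stays at the surface, 2 were called lower at each dose. Over all genes 5.0%, 8.49% and 29.2% were called lower at 0.5, 1.0 and 3.0 Gy. Marchf1, a ubiquitin ligase that sends class II to lysosomes, changed by -0.71, -0.90 and -1.53 (SE 0.22 each; limma adjusted p = 0.0450, 0.00699 and 1.25e-05). Cd83, which opposes that ligase and marks activated B cells and dendritic cells, changed by -0.61, -0.70 and -2.57 (SE 0.17 each; limma adjusted p = 0.0257, 0.00609 and 7.38e-09). Marchf8, a relative of Marchf1, was at -0.06, 0.11 and 0.53 and was not called at any dose (limma adjusted p = 0.928, 0.797 and 0.0560). Of the costimulatory genes, Cd40 was called lower (-0.78) and Cd80 higher (0.47) at 3.0 Gy. The T cell proteins that bind class II, Cd4 and Lag3, were not called at any dose. H2-Eb2 was called lower at 3.0 Gy (-0.72). H2-Ea, whose promoter is deleted in this strain, was called slightly higher at 1.0 and 3.0 Gy (0.34 and 0.28). Its probe set read 6.61 in controls, above the array median on all 5 arrays, and the source of that signal was not tested. A level above the array median thus need not show the gene's own transcript.

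In RefSeq's gene order 7 of the 9 genes lie in the class II region of chromosome 17 among other genes. The 6 non-member genes of the stretch on the array were all called lower at 3.0 Gy (29.2% of all genes), but by smaller amounts. Psmb8 and Psmb9, inducible subunits of the proteasome, changed by -1.30 and -0.82. H2-Eb2 changed by -0.72, Brd2 by -0.68, and the peptide transporters Tap2 and Tap1 by -0.53 and -0.36. The 7 class II members of the same stretch ranged from -2.65 to -4.66. At 0.5 Gy 1 of the 6 was called lower, Psmb9 (-0.55, SE 0.14, limma adjusted p = 0.0150), and at 1.0 Gy 0 of 6. Brd2, Tap1 and Tap2 sit between members and were at 0.05, -0.15 and -0.14 at 0.5 Gy.

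**Figure D4:**
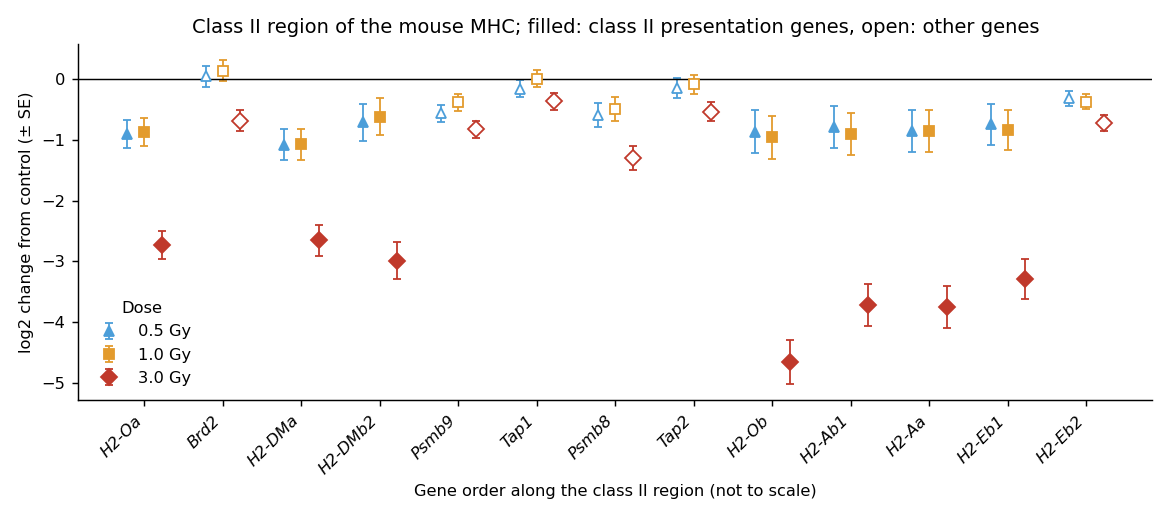
Change from control on the log2 scale (vertical axis; points with limma's SE as bars) at 0.5, 1.0 and 3.0 Gy of 13 genes in their order along the class II region (horizontal axis, equal steps and not to scale); filled symbols are class II presentation genes and open symbols other genes. At 3.0 Gy the filled symbols lie between -2.65 and -4.66 and the open ones between -0.36 and -1.30.

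The genes elsewhere whose pattern was most like these were sought by Pearson's r over the 17 arrays with the mean of the 9 standardized genes. The closest were St6gal1 (r = 0.989), Tnfrsf13b (0.988), Cd79b (0.987), Btla (0.986), Cd79a (0.984), Acp5 (0.984), Ighv14-2 (0.983) and Rtcb (0.983). Because the 3.0 Gy arrays stand apart, they set much of these values. Over the 13 arrays without them r ran from 0.894 in Rtcb to 0.949 in Ighv14-2, and on deviations from group means from 0.884 in Acp5 to 0.965 in Cd79b. St6gal1, which adds sialic acid to glycans including the ligands of Cd22, was at -2.65 at 3.0 Gy, and Tnfrsf13b, the TACI receptor of B cells, at -2.66. The most opposite patterns were those of Ssbp4 (r = -0.970), Gm9895 (-0.963) and Dpys (-0.959).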

How the data were processed

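Whole-blood RNA of 17 mice was measured on Affymetrix arrays, 200 ng of total RNA each per the labels' protocols. The values, deposited on the log2 scale for 45101 probe sets, came from RMA in R 3.3.2 per the submitters' processing notes, which are silent here on settings and filters. RMA equalizes the arrays, so a shift of most genes one way would be partly removed, and it shrinks differences of dim probe sets. Platform annotation gave 34945 probe sets 1 symbol, 932 several and 9160 none, and 64 were control probe sets. limma 3.58.1 in R 4.3.3 fitted 4 group means over all arrays, and the model was tested on simulated data. The number of arrays per group limits the precision. Members and lists were chosen with earlier results of these data known. All 9 members were named, with every called gene of the pathway lists, up to 5 genes of each marker list with the smallest p at 3.0 Gy, the 8 most and 3 least similar genes, and other probe sets. Pax5, Bank1, Pou2af1, Zbtb46, Itgax, Xcr1, Clec10a, Treml4, pathway genes not called, the genes of the class II region and the motifs were named outside that rule, after values were seen. The probe sets of H2-Aa, H2-Ab1 and Rtcb are of types that can bind transcripts of other genes. Those of Cd74, Ciita, Acp5 and Ssbp4 are of a type that matches several transcripts of the same gene. Alternatives changed the probe set rule, the filter, the scaling, the samples fitted, the 18S covariate, the weights and the replicates.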

Additional observations from a re-analysis of the deposited data

Results flagged for a closer look

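1 of 36 gene and group combinations held an array far from the others, where chance alone gives about 1 in 20. In the 3.0 Gy group H2-Oa read 6.71 in replicate 2, and 5.54 to 5.61 on the other 3 arrays. The same array was the highest of its group in 9 of 9 genes, and its B cell marker mean was 6.15, against 4.66 to 4.87. Its monocyte marker mean was 6.27, against 5.60 to 5.96.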

How the results depend on the processing

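At 3.0 Gy all 234 values of the 9 genes under the alternatives tried kept their direction and their call. The counts at the lower doses depended on the choices. At 0.5 Gy, 5 genes were called with only the 2 groups compared (4.40% of all genes were called lower), 1 with the 18S level as a covariate (2.56%) and 7 with array weights (10.6%). Leaving out 1 array gave 1 to 7, the 1 without 0.5 Gy replicate 1 (2.16%) or 3 (2.24%) and the 7 without 3.0 Gy replicate 2 (5.58%). At 1.0 Gy, 4 were called with the mean of all probe sets (9.47%), 4 with repeated quantile normalization (10.3%), 6 with only the 2 groups compared (6.73%), 0 with the 18S covariate (2.53%) and 6 with array weights (11.6%). Leaving out 1 array gave 2 to 7, the 7 without 3.0 Gy replicate 2 (9.04%). With the 18S covariate 0 of 9 were called between 3.0 and 1.0 Gy, as were 0 of all genes, and 0 between 3.0 and 0.5 Gy (0.685%); the 18S level went with the dose groups, and the cause was not tested. The 20 calls against the B cell markers ran from 16 to 21 and the 3 calls between chains from 0 to 4 when 1 array was left out. The 0 came with any control left out, since 4 against 4 arrays allow no exact p below 0.0286. The Ciita difference at 0.5 Gy, -0.02, reversed to 0.13 with the 18S covariate, 0.12 with array weights, 0.13 without control replicate 1 and 0.03 without control replicate 2 (-0.10 to 0.13 over all arrays left out). A replicate block moved 1 call, H2-Ab1 at 1.0 Gy (-0.98, limma adjusted p = 0.0480), giving 2, 3 and 9 calls at the 3 doses. Samples with the same number share only that number: the 24 pairs correlated from -0.454 to 0.495, with 11 over 0.1. Signal over background is not in the deposited values.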
